A study of Mus musculus with 6 samples.

Results

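The 10 genes described here maintain and transcribe the mitochondrial genome or control the nuclear genes that do so: Tfam, Tfb1m, Tfb2m, Polg, Polg2, Polrmt, Twnk, Ssbp1, Nrf1 and Ppargc1b. They were taken by name from the 54532 genes of the deposited table, and each name matched 1 row. Transcript levels were measured by RNA sequencing in CD8 T cells, the cytotoxic arm of the T cell lineage, purified from mouse spleen and lymph nodes. All cells were stimulated in culture for 3 days with beads carrying antibodies to CD3 and CD28. The cells came from wild type mice (WT, n = 3) or from mice with a knockout of Ptpmt1 (KO, n = 3), which encodes a mitochondrial phosphatase of the cardiolipin synthesis pathway. The sources used here do not state strain, age, the knockout allele or any Cre driver, and the labels do not say that replicates came from separate animals. The p-values therefore measure only how far these samples spread, and it is not known how much of that spread is technical.

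The mitochondrial genome is a small circle that encodes core subunits of the respiratory chain together with the ribosomal and transfer RNAs needed to translate them. Every protein that copies, packages or transcribes it is encoded in the nucleus and imported. In T cells, activation is known to set off both cell growth and an increase in mitochondrial mass and mitochondrial DNA, and the PGC-1 family and the factor NRF1 are known to drive nuclear genes of this kind.

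Promoters of these genes are textbook sites for factors of the ETS family such as GABP, also called NRF2 in this setting, whose core motif is CCGGAAG or its reverse complement CTTCCGG. In the 250 bases before the RefSeq start sites (build GRCm38.p6), 9 of the 10 members had an entry, with 11 promoters between them. The motif, searched on both strands, was found in 6 of these 11 promoters, 1 each of Tfam, Polg, Polg2, Polrmt, Twnk and Ssbp1. It stood in 6.91% of all 32851 RefSeq promoters in a window of the same length, and among the 10841 promoters of the genes tested here in 15.0%. The windows are shown because GABP is a known regulator of genes of this kind. Each is 27 bases, 5′ to 3′ on the gene's strand, with the motif in capitals.
Tfam: ctgccgcggaCCGGAAGtccgggcttc
Polg: aggacctcacCCGGAAGtccctctgca
Ssbp1: gctccgtgcgCCGGAAGcgagccgctg
Polrmt: cctaagagcgCTTCCGGcagtcgcaga
Polg2: gggtgacgctCTTCCGGgggcgtggtc
Twnk, upstream match: taaccggtgaCTTCCGGttccggggtt
Twnk, downstream match: gagagttttgCTTCCGGagtcaccgcg
The Tfam window lies at chr10:71238075-71238101, the Polg window at chr7:79466295-79466321 and the Ssbp1 window at chr6:40471411-40471437, and all 3 overlap exonic UTR of a GENCODE transcript of the same gene that starts further upstream. The Polrmt window at chr10:79746608-79746634 and the Polg2 window at chr11:106779550-106779576 lie outside any annotated gene. The Twnk windows at chr19:45006438-45006464 and chr19:45006482-45006508 lie before the second of its 2 RefSeq starts, inside a Twnk intron, and the upstream window also overlaps an exon of Mrpl43 on the other strand. In 5 of the 6 genes a match ended between 23 and 41 bases before the start. The SP1 motif GGGCGG was present in 7 of the 11 promoters, against 57.6% of the tested genes' promoters. The palindromic NRF1 motif, strict or with 1 central base open, was not found in these windows, nor were the E-box CACGTG and the cyclic AMP element TGACGTCA, and they stood in 1.78%, 8.71%, 8.52% and 2.74% of the tested genes' promoters. These letter matches describe the windows only.

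The libraries held 14932604 to 16819913 reads each, rebuilt from the deposited FPKM (fragment number divided by gene length and by a total set for each library). Ptpmt1 itself was at 3.75, 3.84 and 4.13 FPKM in WT and at 1.0004, 1.58 and 1.504 FPKM in KO, so its level went with the labels in all 6 libraries. The libraries of the KO group were not alike. Mitochondrially encoded genes took 4.40%, 7.53% and 2.38% of reads in KO replicates 1, 2 and 3 against 3.38% to 4.76% in WT. KO replicate 3 held no read of Xist and 1837 reads of the Y-linked gene Ddx3y, whereas each other library had at least 3513 Xist reads and none of Ddx3y. The labels give no sex, and by these genes the KO group was of mixed sex and the WT group was not. Of the 8 CD8 T cell markers checked, all 8 had a mean above 1 FPKM, and their summed level was 1667 to 2062 in WT and 1607, 1859 and 1071 in KO. KO replicate 3 also had the highest summed gamma-delta T cell markers (115.1 FPKM against 18.2 to 39.6 elsewhere) and neutrophil and mast cell markers (79.3 against 6.74 to 18.4). In the latter list Mcpt8 (43.3 FPKM) and Cpa3 (25.9 FPKM) made up most of the sum in KO replicate 3, whereas S100a8 and S100a9 were not highest there and Ly6g was at 0 in every library. Summed CD4 and regulatory T cell markers were also highest in KO replicate 3 (9.11 against 2.82 to 5.53 FPKM), with Zbtb7b at 5.44 and Cd4 at 0.137 FPKM there. Of B cell genes, Ighm was at 243 to 387 FPKM and Cd79b at 10.7 to 22.7 FPKM over the 6 libraries, with the lowest value of each in KO replicate 3. The NK cell list summed to 18.2 to 28.0 FPKM, mostly Eomes (17.5 to 24.9 FPKM), with Ncr1 at 0 to 0.296 FPKM. Macrophage and erythroid lists summed to between 3.24 FPKM and 14.003 FPKM. The part of these differences in the results below was not tested, and results are given with and without KO replicate 3. In bulk RNA, fewer cells of a type and less RNA per cell cannot be told apart.

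All 10 members were expressed above the filter of a mean of 0.5 FPKM, and none passed the genotype test. The test was limma on log2(FPKM + 0.5) with p-values adjusted over all 12654 genes tested, of which 5 passed an adjusted p of 0.05 (percent called, 0.0395). Those 5 genes, named after their values were seen, were Gm42031, BC018473, Rn7sk, mt-Tg and Gm4864. Of these mt-Tg, the mitochondrial transfer RNA gene for glycine, lies on the genome that the members serve. It was listed at 0 in every WT library and had a KO mean of 59.9 ± 45.2 FPKM (SD, n = 3, limma adjusted p = 0.0216). The gene thus met the filter only through the group where it was high, and its p-value is not support for a genotype difference. Its length is 68 bases, and the libraries were made from messenger RNA. At an unadjusted p under 0.05, 1 of the 10 members stood out, Tfb1m, against 21.8% of all genes tested, or 11.5% for genes higher in KO. KO was higher than WT by the log2 fold change in 7 of 10 members, against 52.4% of all genes. The members' median log2 fold change was 0.20, beside 0.03 over all genes tested. Values in KO and WT did not overlap for 1 of 10 members, with KO higher, and 14.5% of all genes behaved in that way.

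**Figure D1:**
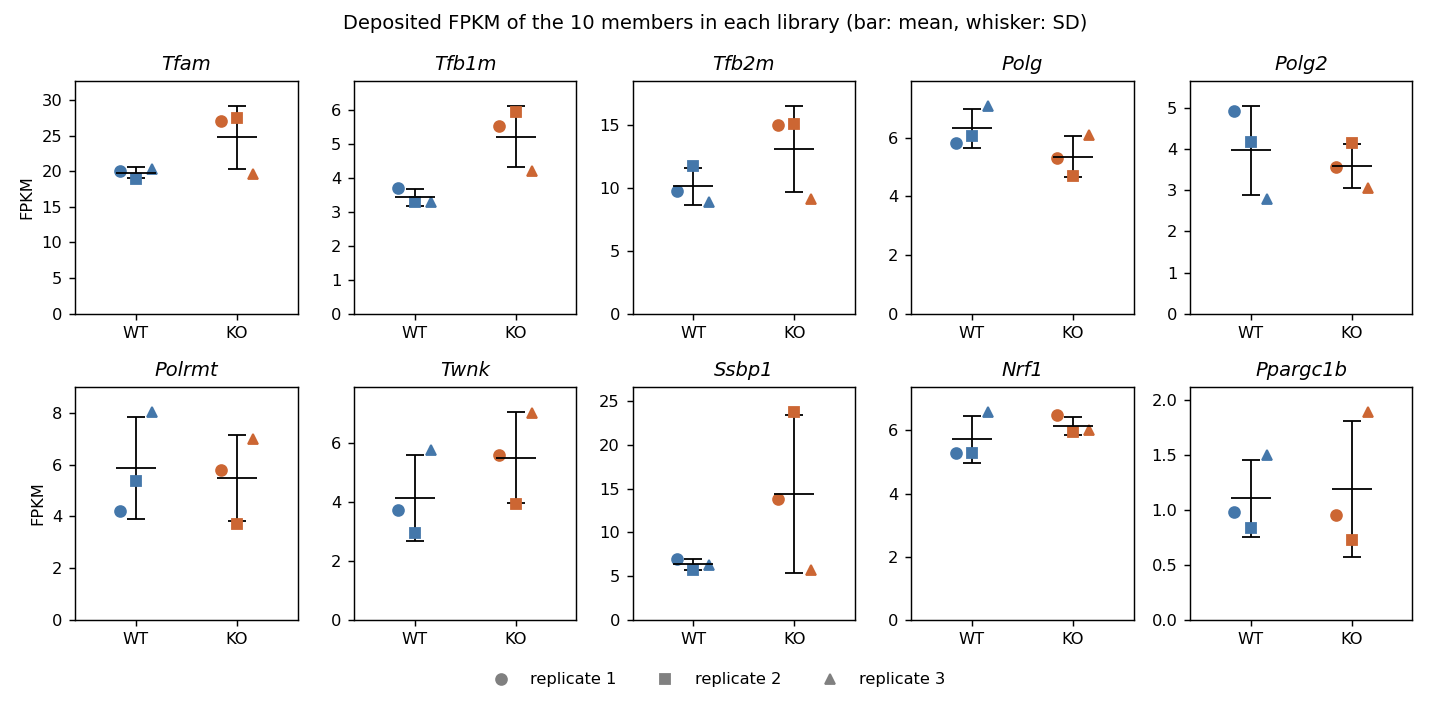
FPKM of each of the 10 members (y axis, from 0, own scale in each panel) in the WT and KO libraries (x axis); points are libraries with the marker giving the replicate, the horizontal bar is the mean and the whisker the SD (n = 3). Only the Tfb1m groups are fully apart, and Ssbp1 has the widest KO spread, from 5.65 to 23.7 FPKM.

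Tfam, the factor that packages mitochondrial DNA into nucleoids and bends its promoters for transcription, was the most abundant member (chr10:71225464-71238280, minus strand, mm10). It was at 20.04, 18.9 and 20.3 FPKM in WT and at 27.1, 27.5 and 19.7 FPKM in KO replicates 1 to 3. The WT libraries lay within a narrow band, KO replicates 1 and 2 lay above it, and KO replicate 3 lay inside it. The means were 19.7 ± 0.771 and 24.7 ± 4.41 FPKM (SD, n = 3), and the log2 fold change was 0.30 (SE 0.179, 95% confidence interval -0.12 to 0.73, limma adjusted p = 0.362). Without KO replicate 3 it was 0.46 (adjusted p = 0.0624), and 0.00037 when the remaining libraries were also rescaled to the same FPKM total (adjusted p = 0.999).

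Tfb1m and Tfb2m encode related methyltransferase-fold proteins. TFB2M is the transcription initiation factor that opens the promoter with the polymerase, whereas TFB1M methylates the small ribosomal RNA of the mitochondrial ribosome. Tfb1m (chr17:3519256-3557781, minus strand) was at 3.71, 3.28 and 3.30 FPKM in WT and at 5.53, 5.93 and 4.21 FPKM in KO. It was the member whose groups did not overlap, and its lowest KO value was again that of replicate 3. The means were 3.43 ± 0.240 and 5.22 ± 0.903 FPKM, with a log2 fold change of 0.53 (SE 0.179, 95% confidence interval 0.11 to 0.95, limma adjusted p = 0.163).

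Tfb2m (chr1:179528055-179546267, minus strand) was at 9.69, 11.7 and 8.87 FPKM in WT and at 15.0, 15.1 and 9.09 FPKM in KO. KO replicates 1 and 2 were nearly equal and above every WT library, while KO replicate 3 lay between the WT values. Its log2 fold change was 0.33 (SE 0.235, 95% confidence interval -0.23 to 0.89, limma adjusted p = 0.449), and 0.56 without KO replicate 3 (adjusted p = 0.0690). Within a library, the level of Tfb2m was 2.62, 3.57 and 2.69 times that of Tfb1m in WT and 2.71, 2.54 and 2.16 times in KO, so the ranges overlapped.

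Polrmt encodes the single-subunit RNA polymerase that transcribes the mitochondrial genome and makes its replication primers (chr10:79736123-79746581, minus strand). It was at 4.21, 5.37 and 8.03 FPKM in WT and at 5.80, 3.69 and 6.99 FPKM in KO. Replicate 3 was the highest of each genotype, and the groups overlapped throughout. On the log2 scale the difference was -0.08 (SE 0.300, 95% confidence interval -0.79 to 0.62, limma adjusted p = 0.891). The interval leaves room for a change of either sign. Tfam exceeded Polrmt by 4.76, 3.52 and 2.53 times in WT and by 4.66, 7.45 and 2.81 times in KO.

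Among the replication genes, both subunits of the DNA polymerase had negative log2 fold changes and Twnk and Ssbp1 positive ones, and none passed the test over all 6 libraries. Polg encodes the catalytic subunit of DNA polymerase gamma, the replicative polymerase of mitochondria (chr7:79446231-79466362, minus strand). It was at 5.82, 6.06 and 7.09 FPKM in WT and at 5.31, 4.68 and 6.08 FPKM in KO. KO replicates 1 and 2 lay below all WT libraries and KO replicate 3 lay among them. This gave a log2 fold change of -0.22 (SE 0.166, 95% confidence interval -0.62 to 0.17, limma adjusted p = 0.468), and -0.31 without KO replicate 3 (adjusted p = 0.218).

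Polg2, the accessory subunit that raises the processivity of the same polymerase (chr11:106768253-106779537, minus strand), was at 4.94, 4.17 and 2.80 FPKM in WT and at 3.57, 4.15 and 3.07 FPKM in KO. All KO values lay inside the WT range. The log2 fold change was -0.10 (SE 0.232, 95% confidence interval -0.65 to 0.44, limma adjusted p = 0.823). Polg exceeded Polg2 by 1.18, 1.45 and 2.53 times in the WT libraries and by 1.49, 1.13 and 1.98 times in the KO libraries, so the ratios overlapped.

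Twnk encodes the helicase Twinkle, which unwinds mitochondrial DNA ahead of the polymerase (chr19:45005663-45012762, plus strand). It was at 3.71, 2.93 and 5.75 FPKM in WT and at 5.57, 3.91 and 6.99 FPKM in KO. Replicate 3 was again the highest of each genotype, and the groups overlapped. Its log2 fold change was 0.38 (SE 0.291, 95% confidence interval -0.30 to 1.07, limma adjusted p = 0.474), and 0.21 without KO replicate 3. Its exons share 507 bases, 12.6% of its exonic length, with Mrpl43 on the opposite strand, and Mrpl43 was more abundant, at 33.2 FPKM in WT and 33.5 FPKM in KO. Polg shares 921 exonic bases (8.57%) with Fanci in the same way, Tfb1m 142 with Tiam2 and Polg2 132 with Milr1. The sources used here do not give the strand setting of the counting, so it is not known whether the reads of such pairs were kept apart.

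Ssbp1 encodes the single-stranded DNA binding protein that coats the displaced strand at the mitochondrial replication fork (chr6:40471352-40484700, plus strand). It had the largest fold change of the 10 members and also the widest spread. It was at 7.01, 5.72 and 6.27 FPKM in WT and at 13.8, 23.7 and 5.65 FPKM in KO. KO replicates 1 and 2 were far above the WT libraries and KO replicate 3 was the lowest of all 6 libraries. The means were 6.33 ± 0.646 and 14.4 ± 9.06 FPKM, a ratio of 2.27, and the KO coefficient of variation was 63.0%. Between 734 and 2604 reads per library lay behind these values.

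The Ssbp1 log2 fold change over all 6 libraries was 0.92 (SE 0.460, 95% confidence interval -0.17 to 2.004, limma adjusted p = 0.292). Leaving out KO replicate 3 raised it to 1.45 (adjusted p = 0.0344), whereas leaving out KO replicate 2 brought it to 0.46. Relative to Tfam in the same library, Ssbp1 was at 0.350, 0.303 and 0.309 in WT and at 0.509, 0.863 and 0.287 in KO. Relative to Twnk it was at 1.89, 1.95 and 1.09 in WT and at 2.47, 6.07 and 0.808 in KO. In both ratios KO replicate 2 was the highest and KO replicate 3 the lowest of the 6 libraries. KO replicate 2 also had the largest share of reads from mitochondrially encoded genes and from ribosomal protein genes (18.1%), and KO replicate 3 the smallest of each (10.4% for ribosomal protein genes), and the part of this in the Ssbp1 values was not tested.

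Nrf1 encodes nuclear respiratory factor 1, a transcription factor of nuclear genes for mitochondrial proteins (chr6:30047988-30153458, plus strand). It was at 5.27, 5.29 and 6.58 FPKM in WT and at 6.48, 5.94 and 5.998 FPKM in KO. The KO libraries were close to each other and inside the WT range. On the log2 scale the difference was 0.10 (SE 0.157, 95% confidence interval -0.27 to 0.47, limma adjusted p = 0.735), and -0.15 when libraries were rescaled to the same FPKM total.

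Ppargc1b encodes PGC-1 beta, a coactivator of that programme (chr18:61298136-61400431, minus strand). It was the least abundant member, at 0.980, 0.832 and 1.499 FPKM in WT and 0.955, 0.726 and 1.89 FPKM in KO. Replicate 3 was the highest of each genotype. This gave a log2 fold change of 0.04 (SE 0.327, 95% confidence interval -0.74 to 0.81, limma adjusted p = 0.958), -0.24 without KO replicate 3 and -0.12 after rescaling, so its direction was not settled. Its lowest library had 38 reads, whereas the other 9 members had at least 100 reads in every library. Its better known relative Ppargc1a was at 0 to 0.0168 FPKM and could not be tested.

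**Figure D2:**
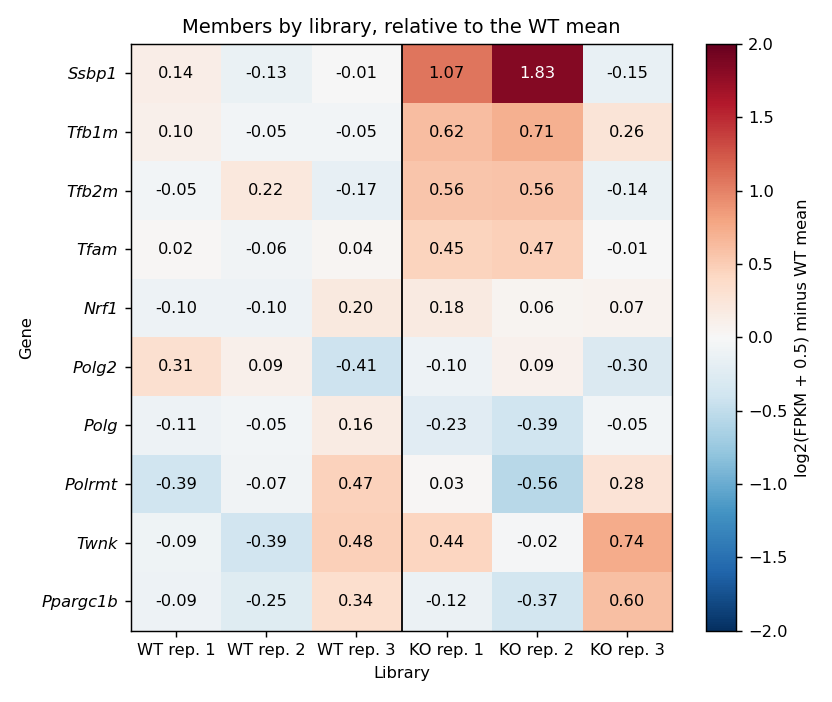
Each cell gives log2(FPKM + 0.5) of a member (y axis) in a library (x axis) minus the mean of the 3 WT libraries, by number and colour, with WT left and KO right of the line. Ssbp1 stands at 1.07 and 1.83 in KO replicates 1 and 2 and at -0.15 in KO replicate 3, and Tfam, Tfb1m and Tfb2m are also lower in KO replicate 3 than in the other KO libraries.

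The members fell into different patterns across libraries. KO replicate 3 was the lowest KO library for 5 members, Tfam, Tfb1m, Tfb2m, Ssbp1 and Polg2. For Polg, Polrmt, Twnk and Ppargc1b, replicate 3 was the highest library of both genotypes. KO replicate 3 lay within the WT range for 6 of the 10 members, against 30.7% of all genes tested. On the log2 scale relative to the WT mean, Tfb1m was at 0.62, 0.71 and 0.26 in the KO libraries and Tfb2m at 0.56, 0.56 and -0.14. Twnk was at 0.44, -0.02 and 0.74, and Polrmt at 0.03, -0.56 and 0.28, so KO replicate 2 was the lowest KO library for both.

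Without KO replicate 3, 2 of the 10 members passed the test, and both rose. These were Ssbp1 (log2 fold change 1.45) and Tfb1m (0.67, limma adjusted p = 0.0430). The share of all genes called in that fit was 13.7%, with 8.12% higher and 5.58% lower in KO. At an unadjusted p under 0.05 it was 4 of 10 members against 35.0% of all genes. The members' median log2 fold change was then 0.16. Tfb1m did not pass when this fit was also rescaled to the same FPKM total, which left 1 member, Ssbp1, with 16.2% of all genes called. In that fit the median over all genes was -0.37, and the limma adjusted p was 0.0302 for Ssbp1 (1.001), 0.413 for Tfb1m (0.25), 0.730 for Tfb2m (0.11) and 0.0774 for Polg (-0.73), with log2 fold changes in parentheses. Leaving out replicate 3 of both genotypes also left Ssbp1 alone (limma adjusted p = 0.0475), with 14.7% of all genes called.

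**Figure D3:**
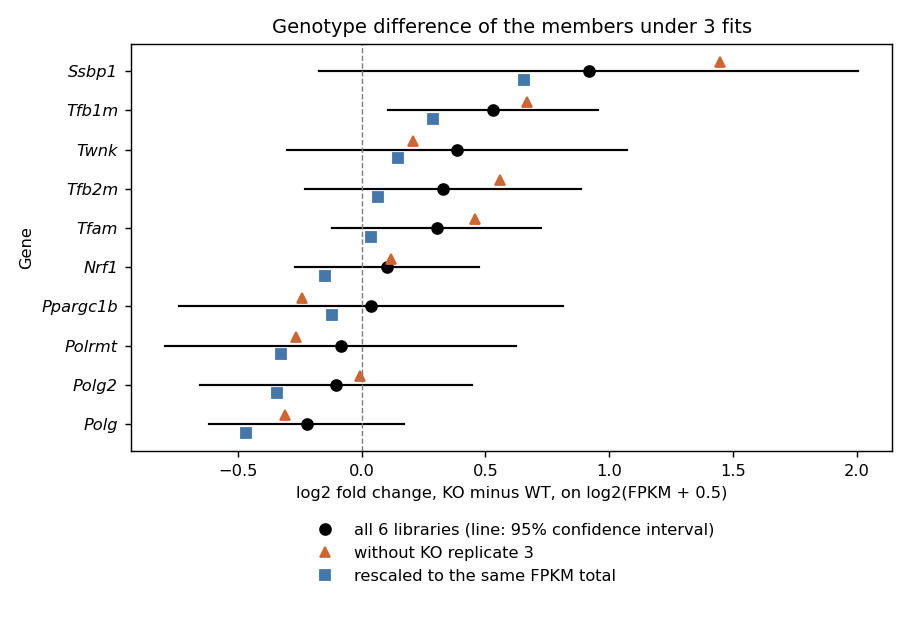
Log2 fold change of KO minus WT on log2(FPKM + 0.5) (x axis) for the 10 members (y axis), with black points and lines for all 6 libraries and their 95% confidence intervals, triangles without KO replicate 3 and squares after rescaling to the same FPKM total. The interval of Tfb1m, 0.11 to 0.95, is the only one of the 10 that excludes 0, and each square lies left of its black point.

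Rescaling to the same FPKM total lowered the log2 fold change of every member. Summed FPKM was higher in KO replicates 1 and 2 than in any WT library, and rescaling to equal totals moved the median over all genes, on the log2 scale, from 0.03 to -0.20. The members' median moved with it, from 0.20 to -0.04, and 5 of 10 members were then higher in KO against 34.3% of all genes. Ssbp1 was at 0.65, Tfb1m at 0.29, Twnk at 0.15, Tfb2m at 0.07 and Tfam at 0.04 on that scale. Polg was at -0.47, Polg2 at -0.34 and Polrmt at -0.32. Over all genes, those with an unadjusted p under 0.05 split into 1459 higher and 1297 lower as deposited and into 485 higher and 1630 lower after rescaling to equal totals. Scaling by the median ratio over genes (median-of-ratios) changed less, as its library factors on the deposited FPKM were 0.998 to 1.016. That was fixed in advance, because the library totals behind the deposited FPKM already followed the median-of-ratios factors of the rebuilt reads. It is therefore not a separate check of the scaling. The members' median was then 0.19, beside 0.02 over all genes. With that scaling 7 of 10 members were higher in KO, against 6536 of all 12654 genes.

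Within WT cells the order of levels by FPKM was Tfam, Tfb2m, Ssbp1, Polg, Polrmt, Nrf1, Twnk, Polg2, Tfb1m and Ppargc1b. The ranges of neighbours in this order were separate only between Tfam and Tfb2m, Tfb2m and Ssbp1, and Tfb1m and Ppargc1b. By the mean level over both genotypes, Tfam ranked at the 80.3 percentile of all genes tested and Ppargc1b at the 13.8 percentile. The order rests on the deposited gene lengths, which span all annotated exons of a gene. For Nrf1 that length, 10282 bases, was 5.47 times its principal transcript of 1879 bases, for Polg2 2.89 times, for Tfb1m 2.57 times and for Ssbp1 1.901 times. With all reads of a gene credited to its principal transcript, the WT means per kilobase were 31.3 for Nrf1, 21.0 for Tfam, 12.0 for Ssbp1, 11.6 for Tfb2m and 11.5 for Polg2. Reads outside that transcript were not taken out, so these values are upper limits and give no order of transcripts. The low place of Tfb1m and Polg2 in the first order therefore depended on the length used. The ratio of KO to WT FPKM of 1 gene did not, but its log2 fold change did through the added 0.5. For Tfb1m, 0.53 became 0.58 with 0.1 added and 0.48 with 1 added.

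The wider pathway was described with 5 lists, none of which held a gene that passed the test over all 6 libraries (0 of 83 tested genes, with 23 at an unadjusted p under 0.05, against 21.8% of all genes). Of 17 genes for replication, nucleoid structure and repair, 14 had a positive log2 fold change (52.4% of all genes), the median was 0.50, and the groups did not overlap in 8, all with KO higher (14.5% of all genes). Without KO replicate 3 and rescaled, 7 were positive and 10 negative (3483 of all 12654 genes were positive). The median of the list was then -0.039, beside -0.37 for all genes. Nthl1, a glycosylase that removes oxidised pyrimidines, was at 3.00, 2.89 and 3.48 FPKM in WT and 6.18, 6.21 and 4.67 FPKM in KO (log2 fold change 0.76, limma adjusted p = 0.107). It was the gene of this list that passed without KO replicate 3 (adjusted p = 0.0346). Dna2, a helicase and nuclease that trims flaps, had a log2 fold change of 0.84 (adjusted p = 0.116), Top1mt, the mitochondrial topoisomerase, 0.84 (0.190), Endog, a mitochondrial nuclease, 0.55 (0.150) and Mgme1, a mitochondrial exonuclease, 0.52 (0.130), with no overlap of groups for any of the 4. For Ogg1, which removes oxidised guanine, it was 0.51 (0.195), and its groups did not overlap either.

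The 13 genes that supply or balance deoxynucleotides in mitochondria went both ways, 9 with a positive and 4 with a negative log2 fold change, beside 52.4% positive over all genes. Of these, 1 positive and 3 negative genes were at an unadjusted p under 0.05, beside 1459 higher and 1297 lower of all 12654 genes. The positive one was Mgme1, which is also in the replication list and is named there. Samhd1, which hydrolyses deoxynucleotides, was at 95.8, 109.5 and 52.6 FPKM in WT and at 41.5, 35.9 and 39.6 FPKM in KO. Every KO value lay below every WT value, and WT replicate 3 was the lowest of WT (log2 fold change -1.07, limma adjusted p = 0.122). The mitochondrial deoxynucleoside kinases Tk2 (log2 fold change -0.56, adjusted p = 0.161) and Dguok (-0.44, adjusted p = 0.186) also had every KO value below every WT value. Groups thus did not overlap with KO lower in 3 of the 13 genes, against 1685 of all 12654 genes. With KO higher they did not overlap in 2, Mgme1 and Tymp, against 1837 of all genes. Slc25a33, a pyrimidine nucleotide carrier, was at 0.48 (0.231) and Tymp, thymidine phosphorylase, at 0.65 (0.253). Without KO replicate 3 the 1 gene of this list that passed was Sucla2, a succinyl-CoA synthetase subunit, named after its values were seen.

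**Figure D4:**
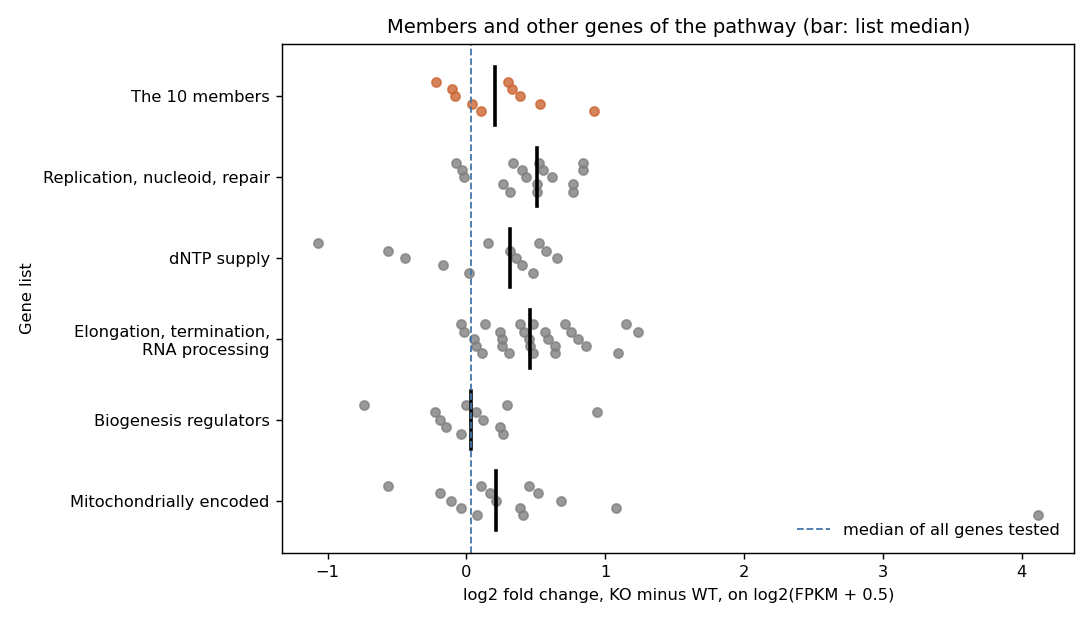
Log2 fold change of KO minus WT (x axis) for each tested gene of 6 lists (y axis), with list medians as black bars and the median of all tested genes, 0.03, as a dashed line. The 10 members have a median of 0.20, below those of the replication and repair list (0.50) and of the elongation and RNA processing list (0.46).

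Of 27 genes that act after initiation, in elongation, termination and RNA processing, 25 had a positive log2 fold change (52.4% of all genes), with a median of 0.46 and 10 at an unadjusted p under 0.05, all higher (11.5% of all genes). After rescaling, 21 were positive (34.3% of all genes) and 4 were at an unadjusted p under 0.05, all higher (485 of all 12654 genes). Tefm, the elongation factor of the mitochondrial polymerase, was at 5.76, 4.94 and 4.57 FPKM in WT and at 12.0, 16.9 and 7.16 FPKM in KO (log2 fold change 1.09, limma adjusted p = 0.125). Rexo2, which degrades short RNA fragments, was at 17.3, 17.1 and 23.9 FPKM in WT and at 34.2, 34.8 and 32.5 FPKM in KO (0.80, adjusted p = 0.105). KO replicate 3 was close to the other KO libraries for Rexo2 and the lowest of KO for Tefm. Mrpl12, a ribosomal protein also reported to bind the mitochondrial polymerase, had a log2 fold change of 1.15 (adjusted p = 0.130), Lrpprc, which stabilises mitochondrial messengers, 0.64 (0.143), Hsd17b10, a subunit of mitochondrial RNase P, 0.48 (0.149) and Fastkd3, a mitochondrial RNA binding protein, 0.58 (0.150).

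Without KO replicate 3, 9 of these 27 genes passed and all rose, against 8.12% of all genes: Rexo2, Tefm, Mrpl12, Pde12, Fastkd2, Pnpt1, Trmt10c, Mterf3 and Slirp. With the same libraries rescaled to the same FPKM total, 3 of the 27 passed, all higher, against 260 of all 12654 genes called higher. The median of the list was then 0.17. After rescaling of all 6 libraries the median of this list was 0.21 and that of the replication list 0.25, beside -0.20 for all genes and -0.04 for the 10 members.

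Of 18 further regulators of mitochondrial biogenesis 12 could be tested, 6 with a positive and 6 with a negative log2 fold change and a median of 0.03. Nrip1, a corepressor of nuclear receptors, was at 6.08, 6.33 and 4.75 FPKM in WT and at 3.29, 3.15 and 3.19 FPKM in KO (log2 fold change -0.74, limma adjusted p = 0.107, and 0.0480 without KO replicate 3). Pprc1, a further PGC-1 family member, was at 2.25, 2.18 and 4.43 FPKM in WT and at 4.83, 4.22 and 9.78 FPKM in KO, with replicate 3 the highest of each genotype as for Ppargc1b (0.94, adjusted p = 0.205). Gabpa, the DNA-binding subunit of the factor whose motif stood in 6 of the 11 member promoters, was at 17.2, 18.2 and 15.9 FPKM in WT and at 19.7, 19.1 and 17.0 FPKM in KO (0.12, adjusted p = 0.676). Sirt1 (0.29, adjusted p = 0.479), Esrra (0.26, adjusted p = 0.5005) and Gabpb2 (-0.23, adjusted p = 0.551) completed the genes named from this list.

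The transcripts that these factors produce did not separate the genotypes as a sum. The 13 mitochondrially encoded coding genes summed to 34332, 29392 and 22730 FPKM in WT and to 33127, 68343 and 14961 FPKM in KO. KO replicate 2 was the highest and KO replicate 3 the lowest library, the same order as for Ssbp1 within the KO group. Of the 15 coding and ribosomal RNA genes 11 had a positive log2 fold change (median 0.22), against 52.4% of all genes. Without KO replicate 2, 4 were positive and 11 negative (median -0.45), and without KO replicate 3, 14 were positive (median 0.87). Of all 12654 genes, 6446 and 6562 were positive in these fits. After rescaling of all 6 libraries to the same FPKM total, 7 were positive and 8 negative (median -0.055), against 34.3% of all genes. The largest log2 fold change of the 15 was that of mt-Nd3, at 5.79, 5.43 and 7.69 FPKM in WT and 142.2, 212.2 and 52.5 FPKM in KO (4.12, limma adjusted p = 0.0757, and 0.00333 without KO replicate 3). The transfer RNA gene mt-Tr, named after its values were seen, had means of 0.319 FPKM in WT and 10.9 FPKM in KO (3.88, adjusted p = 0.0862). Like mt-Tg, it met the filter only through KO. The gene identifiers of mt-Tg, mt-Nd3 and mt-Tr are consecutive, and whether their values are independent of each other was not tested. In WT the mean of mt-Nd3 was 6.30 FPKM and that of mt-Atp8 6.48 FPKM, against 3983 FPKM for mt-Nd1. The multi-mapping rule of the counting is not stated, and its part in the mitochondrially encoded values was not tested. The small ribosomal RNA mt-Rnr1, the substrate of TFB1M, was at 783, 701 and 437 FPKM in WT and 1129.5, 1826 and 1092 FPKM in KO (1.08, adjusted p = 0.151). The log2 fold change was 0.68 for mt-Rnr2 (adjusted p = 0.422), 0.52 for mt-Nd1 (0.578), 0.41 for mt-Nd2 (0.658) and -0.57 for mt-Nd4l (0.591). The libraries were made from messenger RNA, so levels of these ribosomal RNAs, and of the transfer RNAs mt-Tg and mt-Tr, are those that passed the kit.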

How the data were processed

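RNA sequencing values of 6 libraries, 3 WT and 3 KO, were used. Per the labels' protocols, libraries were prepared with a stranded mRNA kit. The submitters' processing notes name the build mm10, DESeq2, featureCounts 1.5.0-p3, HISAT2 2.0.5 and Trim Galore. The sources used here do not state the strand setting, the multi-mapping rule or the annotation release. The authors deposited FPKM per gene and library with the gene length. KO columns carry the gene's name and a number, which matched the sample titles. FPKM times length fell on whole steps (tolerance 0.05) for at least 99.99% of values, so whole reads could be rebuilt. The library totals used for FPKM came to 0.780 to 1.096 times the sums of these reads. They ranked the libraries in the same order as median-of-ratios factors of the rebuilt reads. The lowest was KO replicate 2 (13123695, factor 0.825) and the highest KO replicate 3 (18047371, factor 1.14). The deposited FPKM were thus already close to median-of-ratios scaling.

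The 12654 genes whose FPKM averaged 0.5 or more across libraries were tested as log2(FPKM + 0.5), which understates changes of low genes, with limma 3.58.1 in R 4.3.3 (eBayes with trend, genotype only, 2-sided, Benjamini-Hochberg over all genes). The test was checked on simulated data: of 100 genes changed 2-fold, 29 were called, of 100 changed 4-fold, 92, and of 12454 unchanged genes, 16. The simulated noise was drawn separately for each gene and library, without a library-wide deviation like that of KO replicate 3. These counts therefore do not give the share of real changes found in these libraries. A total of 16 planned and 2 added alternatives, the latter chosen after seeing the data, changed the pseudocount, filter, scaling, model or libraries. Positions are from GENCODE M21 (mm10), counted from 1, and promoters from RefSeq (GRCm38.p6). All 10 members were named, with Ptpmt1 as the label check. From each other list up to 6 genes with the smallest unadjusted p were named, and genes beyond that are named where a count was small. Members and lists were chosen with earlier results of these data known. Of 54532 identifiers 54409 matched GENCODE M21. The result of 1 marker gene is not reported here.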

Additional observations from a re-analysis of the deposited data

How the results depend on the processing

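Depth was 38 to 2604 reads per member and library, lowest for Ppargc1b. The test called 5 of all genes, but 3 with a pseudocount of 1 or with no filter on low values, 14 without the mean-variance trend, 1 with limma-voom on rebuilt reads and 7200 with sample weights. Those weights gave KO replicate 1 a value of 36.4 against 0.154 to 1.51 for the others, so that fit rests nearly on 1 KO library, and it called 6 members and 49 other pathway genes. Leaving out 1 library gave 2 to 1733 genes in all, 0 to 2 members and 0 to 13 other pathway genes, with each upper value from leaving out KO replicate 3. Without KO replicate 3 and rescaled there were 2052 genes, 1 member and 8 other pathway genes, and without replicate 3 of both genotypes 1863, 1 and 17. Rescaling all 6 libraries to the same FPKM total called 1 other pathway gene, and moved the members' median log2 fold change to -0.041, or to -0.26 without KO replicate 3. Median-of-ratios scaling left that median at 0.19, with 5 genes and 0 members called, but it could change little, as the deposited FPKM were already close to it. With the replicate number as a block, 12 genes and 0 members were called. Deviations from the group means of same-numbered libraries correlated at 0.13, 0.067 and 0.33. The last, of replicate 3, was the highest of all WT and KO pairs, and KO replicate 2 with WT replicate 1 came next (0.27). With 3 libraries per group these values cannot decide whether same-numbered samples were paired, and the labels name no pairing. Tfam, Tfb1m, Tfb2m, Polg and Ssbp1 kept the sign of their log2 fold change in all 18 alternatives, though Tfam came to 0.00037 without KO replicate 3 and rescaled. The sign turned for Polg2 when 1 library was left out (-0.31 to 0.053), for Polrmt likewise (-0.28 to 0.15) and with weights (0.17), and for Twnk without KO replicate 3 and rescaled (-0.21). It turned for Nrf1 after rescaling (-0.15, or -0.31 also without KO replicate 3). For Ppargc1b it turned after rescaling (-0.12, or -0.53 also without KO replicate 3), with weights (-0.0021), without replicate 3 of both genotypes (-0.07) and when 1 library was left out (-0.24 to 0.24). The cause was not tested.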
